A study of Mus musculus with 6 samples.

Results

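The proteasome subunit genes were followed in splenic erythroid cells of mice with sickle cell disease that were wild type (WT) or knockout (KO) for Nrf2. They were the 43 symbols, of 35178 in the count table, made of Psma, Psmb, Psmc, Psmd or Psme and a number, chosen by name and not by their values. Of these, 42 passed the filter on low counts and were tested. The exception was Psmb11, which encodes a subunit of thymic epithelium and had 4 reads in KO replicate 2 and 0 in each other library. Each group had 3 libraries of Ter119+ spleen cells (Ter119 is an erythroid surface marker). The animals were 2 to 3 months old and of a mixed B6;129P2 background. Both groups carried sickle cell disease. The labels used here name neither the sickle allele nor the deleted part of Nrf2, and do not say whether a library is 1 animal. The p-values weigh a difference against the spread between libraries, which may be technical in WT. In KO it was not technical alone, as the sex-linked transcripts given below place KO replicate 3 apart from KO replicates 1 and 2.

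The proteasome degrades proteins tagged with ubiquitin. Its 20S core is a barrel with outer rings of alpha subunits (Psma) and inner rings of beta subunits (Psmb), some of which carry the peptidase sites. The 19S cap binds ubiquitin, unfolds the substrate with a ring of ATPases (Psmc) and opens the gate of the core, while the Psme proteins are other activators that dock on the same ends. In maturing erythroid cells the ubiquitin-proteasome system helps to remove proteins that the red cell no longer needs. Nrf2 and its relative NRF1, encoded by Nfe2l1, bind antioxidant response elements, and NRF1 is known to drive proteasome genes in mammalian cells when the proteasome is inhibited.

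Proximal promoters of the members are shown here because Nrf2 and NRF1 share this element. Its core was searched as TGACNNNGC on both strands of the 250 bases before each RefSeq start (GRCm38.p6, the assembly also named mm10). A promoter was found for 36 of the 43 members, and 5 of them (13.9%) held the core, against 11.5% of all 27025 genes with a promoter in that table. The share among the members was close to that of all genes. The 5 promoters are given as windows of 60 bases on the strand of the gene, with the match in capitals, followed by the 60 bases before the start of Psme3, in whose 250 bases no match was found.
Psmb5: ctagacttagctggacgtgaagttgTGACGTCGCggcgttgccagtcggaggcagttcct
Psmb6: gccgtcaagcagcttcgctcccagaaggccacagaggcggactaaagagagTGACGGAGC
Psmd9: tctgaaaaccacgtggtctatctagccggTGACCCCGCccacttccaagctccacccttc
Psmc6: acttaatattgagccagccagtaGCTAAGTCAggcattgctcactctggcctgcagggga
Psmd12: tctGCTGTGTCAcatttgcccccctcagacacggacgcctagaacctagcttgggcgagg
Psme3: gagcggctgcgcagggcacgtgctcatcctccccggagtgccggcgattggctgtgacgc

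The Psmb5 window is chr14:54618008-54618067 on the minus strand and that of Psmb6 is chr11:70525297-70525356 on the plus strand. The windows of Psmd9 (chr5:123228130-123228189), Psmc6 (chr14:45329574-45329633), Psmd12 (chr11:107479278-107479337) and Psme3 (chr11:101316153-101316212) are all on the plus strand. Psmb5 and Psmb6 encode catalytic subunits, and their matches ended 39 bases and 1 base before the start. In Psmc6 and Psmd12 the match was on the other strand and ended 219 and 239 bases before the start. Of the 5 genes with a match 4 were higher in KO (median log2 0.08), and of the 30 tested genes with a promoter and no match 23 were higher, also with a median of 0.08. The search ended at the start, so a match running across it was not counted. The Psme3 window ends in tgacgc, bases that could open such a match. The bases before the start of Psma7, which had no match and was higher in KO, end in tgacgcc and could do so too. These letters are a description of sequence and do not show binding.

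The libraries held 16420054 to 21790983 counted reads. Nfe2l2, the gene of Nrf2, had 98.7, 71.0 and 75.2 CPM (reads of the gene per 1000000 counted reads, with totals scaled by the TMM method) in WT replicates 1, 2 and 3 and 63.4, 76.8 and 68.6 in KO replicates 1, 2 and 3. The log2 change was -0.23 (SE 0.14, adjusted p = 0.556 by edgeR), and the groups overlapped; reads outside a deleted part check nothing about the genotype. Of the 9 erythroid markers tested all were lower in KO, by log2 -0.80 to -0.17, where 52.9% of all genes were higher. At an unadjusted p under 0.05 by edgeR 7 were lower, where 5.98% of all genes were. The globin Hba-a2 was at 0.45 without WT replicate 3, and the 4 mouse globin genes in the table summed to only 17.6 to 61.0 CPM. Xist, made by the inactive X of females, stood at 781 to 1164 CPM of library totals in WT and 914 in KO replicate 3, and at 15.8 and 0.70 in KO replicates 1 and 2. Y chromosome genes had sums of 211 and 270.5 CPM in KO replicates 1 and 2, of 4.63 in KO replicate 3 and of at most 0.288 in WT. By these transcripts KO replicates 1 and 2 differed from all WT libraries in sex as well as genotype, and these cannot be told apart there. Results are therefore also given for KO replicate 3 alone against WT. In such bulk samples fewer cells of a type and less RNA per cell cannot be told apart.

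Psme3 had by far the highest level of the family. It encodes the activator of nuclear proteasomes that acts on proteins without a ubiquitin tag, and lies on chromosome 11 from 101316213 to 101323537 (mm10). In WT its mean level per length was 445 CPM per kb of the principal transcript, followed by 203 for Psmd4, a ubiquitin receptor of the cap, and 147 for Psma1. The 14 standard subunits of the core (Psma1 to Psma7 and Psmb1 to Psmb7), which a barrel holds in equal number, ranged from 40.7 for Psma3 to 147 for Psma1, with a median of 89.6 CPM per kb. The lowest levels among tested members belonged to Psmb9 at 19.3, Psmb10 at 17.0, Psmb8 at 6.38 and the testis alpha subunit Psma8 at 1.25 CPM per kb. With the union of all exons as length Psme3 was again first and Psmb8 and Psma8 were again 41st and 42nd of 43, but Psma1 became 11th and Psmc5, an ATPase of the cap, second, so the order within the middle depends on the gene model.

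**Figure D1:**
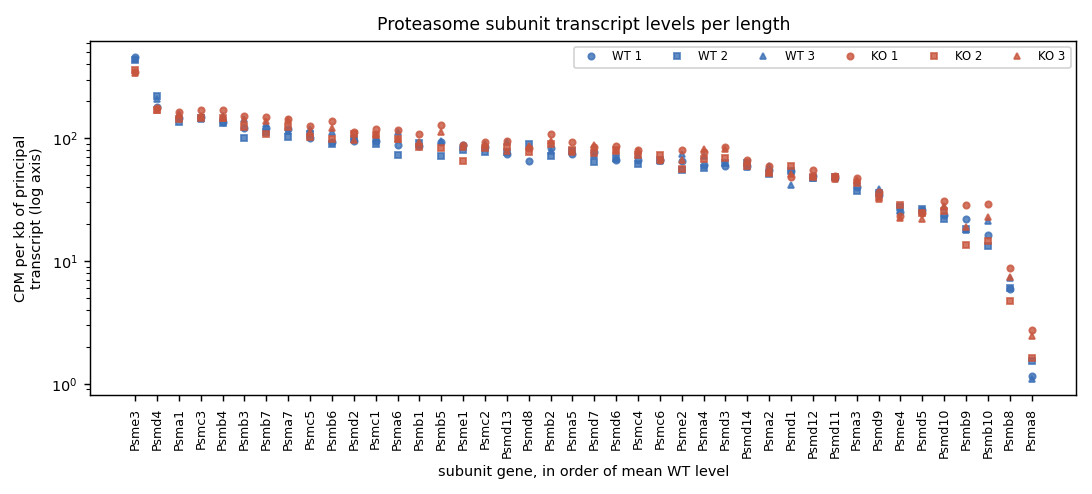
CPM per kb of the principal transcript (log axis) of each member in each library, in order of the mean WT level (Psmb11, with no WT reads, is left out); circles, squares and triangles are replicates 1, 2 and 3, blue WT and red KO. Psme3 stands above all other members in all 6 libraries, and Psmb8, Psmb9, Psmb10 and Psma8 lie at the low end.

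The question put to the family was whether any of its parts differed between WT and KO. No member passed an adjusted p of 0.05 over the 13721 genes tested with edgeR (0 of 42), where 3 genes, or 0.0219% of those tested, did so. At an unadjusted p under 0.05 there were 5 members higher in KO (Psma7, Psma8, Psmb2, Psmd3 and Psmd6) and 2 lower (Psmd4 and Psme3). Over all genes these shares were 6.25% higher and 5.98% lower, so 5 of 42 was a larger share than the background and 2 of 42 a slightly smaller one. DESeq2 called 1 member, Psme3 (log2 -0.37, adjusted p = 0.0183), and 3.57% of the genes it tested, and limma-voom called 0 members.

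Most members had slightly higher values in KO. The log2 change was above 0 for 34 of 42, against 52.9% of all genes, with a median of 0.10 against 0.02 for all genes. In 7 members every KO library was above every WT library (10.3% of all genes did so), and in 3 every KO library was below (7.91% of all genes). With library totals as the scale the median was 0.15 over all genes and 0.23 over the members, so the distance to all genes was 0.08 with either scaling. For KO replicate 3 alone 31 of 42 were above 0, against 53.3% of all genes. The median was 0.08, against 0.03 for all genes, a distance of 0.05.

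One library carried much of this. KO replicate 1 was the highest of the 6 libraries for 32 of 42 members and for 13 of the 14 standard core subunits, whereas it was highest for 17.5% of all genes. Relative to the WT mean the median member had a log2 difference of 0.26 in KO replicate 1, 0.0049 in KO replicate 2 and 0.08 in KO replicate 3, and of -0.02, -0.08 and 0.07 in WT replicates 1, 2 and 3. KO replicates 2 and 3 thus lay within or barely above the range of the WT libraries. Without KO replicate 1 the median change was 0.0051, 18 of 42 members were lower, and 0 were higher at an unadjusted p under 0.05, with 1 lower, by edgeR.

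**Figure D2:**
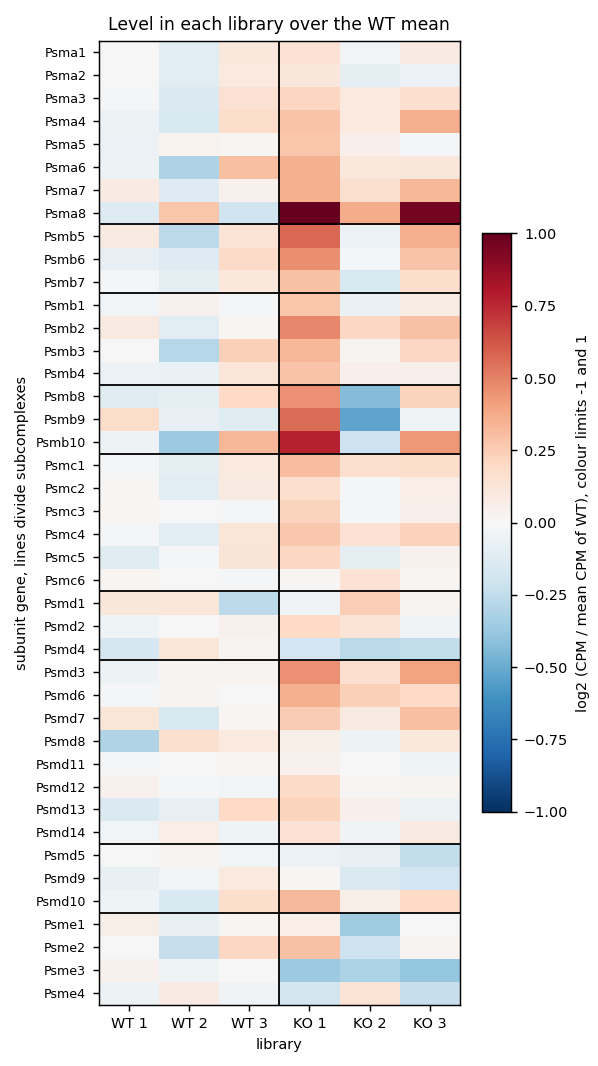
Colour gives the log2 of CPM over the mean of the 3 WT libraries for each tested member (rows, divided by subcomplex) in each library (columns), with colours ending at -1 and 1. The KO 1 column is the reddest for most rows, with a median of 0.26, and Psme3 is blue in all 3 KO columns.

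The activators were led by Psme3, the member with the smallest p. It had 1224, 1154 and 1179 CPM in WT replicates 1, 2 and 3 and 924, 949.8 and 909 in KO replicates 1, 2 and 3. All KO libraries lay below all WT libraries, with little spread within KO. The change from 1186 ± 35.3 to 928 ± 20.6 CPM (mean ± SD, n = 3 each) was a log2 of -0.35 (SE 0.10), with an unadjusted p = 0.00424 and adjusted p = 0.198 by edgeR. A two-sided exact permutation test gave p = 0.1, the smallest that 3 against 3 can give. Leaving out 1 library at a time gave -0.38 to -0.33, KO replicate 3 on its own gave -0.38, and by library totals -0.22. The difference was therefore as large without KO replicate 1, at -0.37.

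Within a library Psme3 also stood lower against the core. Its level per kb was 4.29 to 5.11 times the median of the 14 standard core subunits in WT and 2.83 to 3.804 times in KO, or 8.35 to 9.88 and 5.74 to 7.74 times with exon unions as lengths. The groups did not overlap in either. This ratio needs no scaling between libraries, but shows unequal change only. The 12 erythroid markers in the table, of which the 9 tested were all lower in KO, summed to 31547 to 33575 CPM in WT and 21705 to 24004 in KO; whether erythroid stage has a part in the Psme3 difference was not tested.

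The other activators had overlapping groups. Psme1 and Psme2 form the ring of the interferon-inducible activator and are neighbours on chromosome 14. Psme1 had 97.6, 89.2 and 94.2 CPM in WT and 98.0, 73.0 and 94.0 in KO (log2 -0.08, SE 0.13). Psme2 had 62.4, 53.2 and 72.0 CPM in WT and 76.5, 54.2 and 63.8 in KO (log2 0.05, SE 0.15). In both the groups overlapped and KO replicate 2 was the lowest KO library. Reads of Psme2 may be split with its copy Psme2b, which had 32 to 69 reads a library. Psme4, a large activator of nuclear proteasomes, had 164, 179.9 and 165 CPM in WT and 149.7, 187 and 145 in KO, also overlapping (log2 -0.08, SE 0.12), and a sign that turned to 0.05 by library totals.

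The alpha ring had 7 of 8 members above 0 and a median log2 change of 0.18, which was 0.097 to 0.27 with 1 library left out. Psma7, an alpha subunit on chromosome 2 from 180036374 to 180042433, had 108, 92.8 and 105 CPM in WT and 131, 113 and 128 in KO. The KO libraries were all higher, with a log2 change of 0.28 (SE 0.11, unadjusted p = 0.0226, adjusted p = 0.327 by edgeR). Without single libraries it was 0.22 to 0.33, and for KO replicate 3 alone 0.33. Psma8, its testis paralog, had 1.95, 2.57 and 1.85 CPM in WT and 4.61, 2.74 and 4.12 in KO, from 30 to 41 reads in WT and 61 to 82 in KO. Its groups did not overlap either (log2 0.85, SE 0.35, adjusted p = 0.370 by edgeR), and KO replicate 3 alone was at 0.96.

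The remaining alpha subunits differed less. Psma4 had 70.9, 66.2 and 83.4 CPM in WT and 89.4, 78.5 and 94.5 in KO (log2 0.25, SE 0.12), with an overlap. Psma1 had 177, 163 and 189.7 in WT and 195, 173 and 187 in KO (log2 0.07, SE 0.10). Psma2 was at -0.0069 and Psma3, Psma5 and Psma6 were at 0.16, 0.11 and 0.20. In 6 of these 8 genes, namely Psma1 to Psma4, Psma6 and Psma7, WT replicate 2 was the lowest library.

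The standard beta subunits were all above 0. Among those without a peptidase site, Psmb2, on chromosome 4 from 126677630 to 126709714, had 71.1, 62.0 and 67.8 CPM in WT and 93.3, 77.2 and 82.2 in KO. Each KO library exceeded each WT library, and the log2 change was 0.33 (SE 0.11, unadjusted p = 0.0142, adjusted p = 0.281 by edgeR). For KO replicate 3 alone it was 0.29. Psmb1, Psmb3 and Psmb4 had smaller changes of 0.10, 0.19 and 0.13, with groups that overlapped.

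The catalytic subunits had values that spread more than those of Psmb2. Psmb5, which carries the chymotrypsin-like site, had 82.9, 64.7 and 85.5 CPM in WT and 116, 74.7 and 100.1 in KO (log2 0.32, SE 0.17). Psmb6, with the caspase-like site, had 74.8, 72.1 and 90.05 in WT and 109, 78.4 and 96.0 in KO (log2 0.26, SE 0.14). Psmb7, with the trypsin-like site, had 139, 131 and 151 in WT and 172, 126 and 159 in KO (log2 0.12, SE 0.13). In all of them KO replicate 1 was highest, KO replicate 2 lay inside or below the WT range, and the adjusted p by edgeR was 0.485 to 0.773. Without KO replicate 1 the change of Psmb5 was 0.15, that of Psmb6 was 0.12 and that of Psmb7 was -0.0040.

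The immunoproteasome subunits take the places of the catalytic subunits in immune cells and after interferon. Psmb8 replaces Psmb5 and had 9.54, 9.72 and 11.9 CPM in WT and 14.2, 7.68 and 12.1 in KO. Psmb9 replaces Psmb6 and had 29.6, 24.6 and 24.0 in WT and 38.4, 18.1 and 25.4 in KO. Psmb10 replaces Psmb7 and had 21.4, 17.2 and 28.0 in WT and 37.8, 19.2 and 29.96 in KO. For each gene the KO libraries spread wider than the WT libraries, with KO replicate 1 highest and KO replicate 2 lowest in KO. The log2 changes were 0.13 (SE 0.24), 0.06 (SE 0.24) and 0.38 (SE 0.26), and the adjusted p by edgeR was 0.607 to 0.947. Without KO replicate 1 they were -0.095, -0.29 and 0.12, and without KO replicate 2 they were 0.33, 0.28 and 0.60. Psmb9 overlaps Tap1 in the annotation, and how the counting treated strand is not stated, so some of its reads may be those of Tap1.

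Per length, the immunoproteasome transcripts were a minority of each pair. Psmb8 stood at 6.35% to 8.29% of Psmb5 in WT and 5.68% to 6.78% in KO. For Psmb9 over Psmb6 the values were 15.7% to 23.3% and 13.6% to 20.7%, and for Psmb10 over Psmb7 11.6% to 16.4% and 13.5% to 19.4%. The ranges of WT and KO overlapped in all 3 pairs. With exon unions as lengths the means for Psmb10 over Psmb7 became 31.5% in WT and 37.5% in KO in place of 13.9% and 16.6%, and those for Psmb8 over Psmb5 became 3.59% and 3.07% in place of 7.45% and 6.38%, so these shares are only as good as the gene models.

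Transcripts of other cells were present and varied between libraries. The 8 B cell markers summed to 209, 48.9 and 64.5 CPM in WT replicates 1, 2 and 3 and to 88.4, 32.8 and 38.3 in KO replicates 1, 2 and 3. The 3 immunoproteasome genes summed to 60.5, 51.6 and 63.9 and to 90.4, 45.0 and 67.5 in the same libraries. Within KO the replicate with most B cell marker reads was also the one with most immunoproteasome reads, and KO replicate 2 had the least of both. In WT replicate 1, however, a B cell sum of 209 came with a middling immunoproteasome sum. The KO order was not particular to these genes. For the catalytic subunits too KO replicate 1 was highest (397 CPM), then replicate 3 (355), then replicate 2 (279). The standard core genes and the T and NK cell markers had this order as well. The activators and the macrophage and neutrophil markers had other orders. The 10 T and NK cell markers summed to 35.0 to 48.3 CPM in WT and 34.4 to 53.6 in KO, and 9 of the 10 macrophage and dendritic cell markers were higher in KO, with sums of 1073 to 1277 and 1264 to 1487. All 7 platelet and megakaryocyte markers were lower in KO (median log2 -0.59), with sums of 168 to 376 CPM in WT and 179.9 to 218 in KO, and 7 of the 8 neutrophil markers were lower (median log2 -0.28), with sums of 311 to 974 and 472 to 635. No marker of these lists was at 0 in any library, and the part of such cells in the proteasome values was not tested.

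Genes of the interferon and MHC class I list, which accompany the immunoproteasome in antigen presentation, had values on both sides of 0. Of 12 tested 4 were above 0, against 52.9% of all genes, and 8 below. At an unadjusted p under 0.05 by edgeR there were 0, and 0 were called. The median log2 change was -0.02 (-0.18 to 0.064 with 1 library left out). The ubiquitin-like modifier Isg15 had 1559, 733 and 1284 CPM in WT and 858, 781 and 839 in KO (log2 -0.53, SE 0.24), with groups that overlapped. Tapbp, which helps to load peptides, was at 188 ± 9.67 and 167 ± 7.72 CPM (log2 -0.17) and the interferon factor Irf7 at 151 ± 41.4 and 121 ± 24.7 (log2 -0.32).

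**Figure D3:**
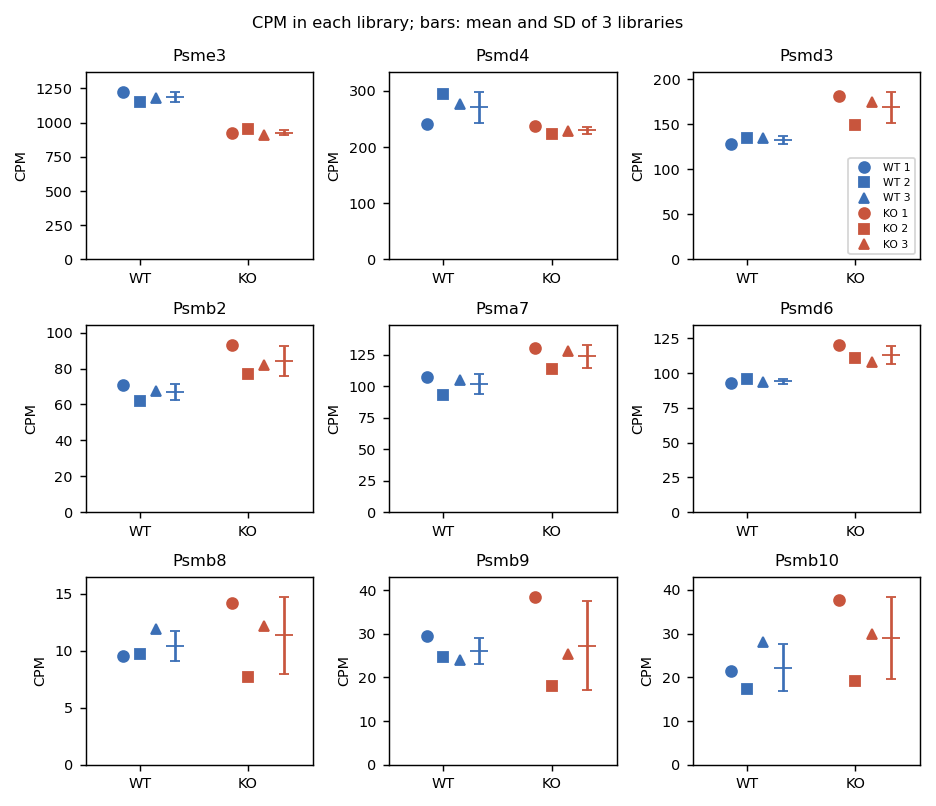
CPM in each library for 9 members on linear axes from 0, with circles, squares and triangles for replicates 1, 2 and 3 (blue WT, red KO) and bars for the mean and SD of 3 libraries. For Psme3 and Psmd4 all KO points lie below all WT points, for Psmd3, Psmb2, Psma7 and Psmd6 all lie above, and for Psmb8, Psmb9 and Psmb10 the groups overlap, with KO 1 on top.

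The ATPase ring of the cap had 6 of 6 members above 0, by a median log2 of 0.08 and at most 0.22; the median was 0.032 to 0.13 with 1 library left out. Psmc1 had 149.99, 143 and 163 CPM in WT and 188, 170.0 and 171 in KO (log2 0.22, SE 0.10, adjusted p = 0.413 by edgeR). Psmc4 had 94.8, 88.6 and 104 in WT and 115, 106 and 112 in KO (log2 0.22, SE 0.10, adjusted p = 0.435 by edgeR). In this pair all KO libraries were above all WT libraries. Psmc3 had 243, 239 and 236 in WT and 279, 237 and 248 in KO (log2 0.09, SE 0.10), and Psmc2, Psmc5 and Psmc6 had log2 changes of 0.06 to 0.07, all with overlapping groups.

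The rest of the base of the cap was divided. Psmd4, the ubiquitin receptor on chromosome 3 from 95032694 to 95042614, had 240.5, 294 and 276 CPM in WT and 237, 224 and 228 in KO. The KO libraries were all lower, though KO replicate 1 lay only just below WT replicate 1. The log2 change was -0.24 (SE 0.11, unadjusted p = 0.0488, adjusted p = 0.406 by edgeR), -0.31 to -0.17 without single libraries, -0.25 for KO replicate 3 alone and -0.10 by library totals. The scaffolds Psmd1 and Psmd2 had log2 changes of 0.08 (SE 0.13) and 0.10 (SE 0.10). Psmd2 stood at 283, 292 and 301 in WT and 335, 321 and 285 in KO, and Psmd1 at 167, 169 and 129 in WT and 151, 184 and 158 in KO, so that both overlapped.

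The lid, which holds the deubiquitinase of the cap, had 7 of 8 members above 0. Psmd3, a scaffold of the lid on chromosome 11 from 98682554 to 98695979, had 128, 135 and 135 CPM in WT and 182, 149 and 175 in KO. All KO libraries were higher, by a log2 of 0.35 (SE 0.11, unadjusted p = 0.00717, adjusted p = 0.228 by edgeR), and leaving out 1 library at a time gave 0.27 to 0.42. KO replicate 3 on its own gave 0.40. Psmd6, another lid subunit, had 92.8, 95.7 and 93.6 in WT and 120.5, 111 and 108 in KO (log2 0.27, SE 0.10, unadjusted p = 0.0191, adjusted p = 0.312 by edgeR). The WT libraries of Psmd6 lay close together and all KO libraries lay above them, with KO replicate 3 alone at a log2 of 0.20.

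The deubiquitinase itself, Psmd14, had similar levels in both groups. It had 91.4, 97.5 and 90.5 CPM in WT and 103, 90.9 and 99.1 in KO (log2 0.07, SE 0.10), while its partner Psmd7 had 123, 101 and 115 in WT and 135, 120.3 and 139 in KO (log2 0.22, SE 0.11). Both overlapped between the groups. Psmd11 had the log2 change closest to 0, with 136, 137 and 139 in WT and 141, 136 and 133 in KO (log2 -0.0015, SE 0.09). Psmd8, Psmd12 and Psmd13 had log2 changes of 0.04 to 0.08.

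The base assembly chaperones, which bear Psmd names but leave the finished particle, had log2 changes of both signs. Psmd5 had 114, 116 and 111 CPM in WT and 109, 108 and 95.9 in KO, all KO libraries below WT (log2 -0.13, SE 0.10, adjusted p = 0.673 by edgeR), and a change of 0.0035 by library totals. Psmd9 had 89.6, 92.5 and 101 in WT and 95.1, 85.4 and 82.4 in KO (log2 -0.11, SE 0.11), or 0.03 by library totals. Their direction thus depended on the scaling. Psmd10, the only member on the X chromosome, had 34.1, 31.5 and 39.6 in WT and 43.9, 36.6 and 40.2 in KO (log2 0.20, SE 0.13), with KO replicate 3 alone also at 0.20.

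**Figure D4:**
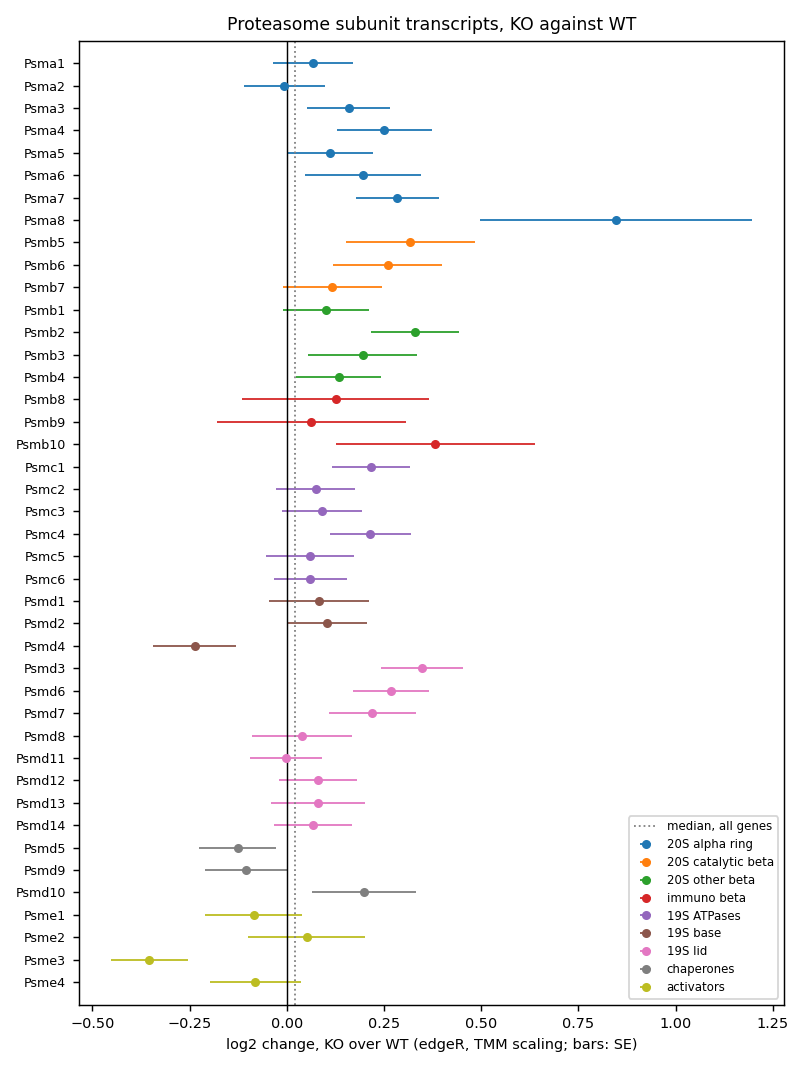
Log2 change of each tested member, KO over WT, with bars for the SE and colours for subcomplexes; the dotted line is the median of all genes tested at 0.02. Of the 42 points 34 lie right of 0, and Psme3 and Psmd4 stand out on the left at -0.35 and -0.24.

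Summed over subcomplexes, the core was higher at its mean and the activators lower. The 14 standard core genes summed to 1585, 1476 and 1729 CPM in WT and 1958, 1612 and 1771 in KO, which overlapped. The 17 cap genes without the chaperones summed to 2522, 2599.9 and 2649.6 in WT and 2889, 2675 and 2692 in KO, all KO sums above WT. The 4 activators summed to 1547, 1476 and 1511 in WT and 1248, 1264 and 1211 in KO, all below, of which Psme3 made up the greater part. All 43 members together came to 6002 ± 185 CPM in WT and 6077 ± 320.4 in KO (mean ± SD, n = 3 each), within the spread between libraries. That total joins a lower Psme3 to a higher mean of the rest. The 42 members other than Psme3 came to 4817 ± 184 in WT and 5150 ± 328 in KO, with groups that overlapped.

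Partners of the proteasome that the naming rule leaves out were looked at next. Of 15 tested, 9 were above 0, against 52.9% of all genes, and 6 below. Their median log2 change was 0.10 (0.011 to 0.17 with 1 library left out). At an unadjusted p under 0.05 there were 3 higher (Psmg1, Psmg4 and Uchl5) and 1 lower (Psmf1), with 0 called by edgeR. For all genes the shares at that p were 6.25% higher and 5.98% lower. Psmg4, a chaperone of alpha ring assembly, had 6.03, 5.33 and 8.09 CPM in WT and 12.6, 13.8 and 9.22 in KO (log2 0.88, SE 0.24, adjusted p = 0.194 by edgeR and 0.0435 by DESeq2). For KO replicate 3 alone it was 0.51. Uchl5, a deubiquitinase that binds the cap, had 46.7, 42.0 and 50.0 in WT and 58.7, 57.8 and 60.4 in KO (log2 0.35, SE 0.11, adjusted p = 0.249 by edgeR). In both all KO libraries were higher.

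Psmf1, which binds the ends of the core and inhibits it in vitro, was 1 of the 6 partners below 0 and the only one at an unadjusted p under 0.05. It had 326, 296 and 304 CPM in WT and 235, 266 and 231 in KO, all KO libraries below WT (log2 -0.34, SE 0.10, unadjusted p = 0.00751, adjusted p = 0.232 by edgeR). The size was close to that of Psme3, and it was -0.42 to -0.30 without single libraries. By library totals the log2 change of Psmf1 was -0.21, with an unadjusted p = 0.0706 by edgeR.

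Of 8 genes in a list around the NRF1 route, which also holds Nfe2l2 and Keap1, 6 were below 0 and 2 above. Those above were Keap1 (log2 0.14) and Maff (log2 0.71, at means of only 0.61 CPM in WT and 1.02 in KO). Nfe2l2 was among those below, so these counts do not describe the NRF1 route alone. The median log2 change of the list was -0.26, or -0.13 by library totals and -0.28 to -0.15 with 1 library left out. At an unadjusted p under 0.05 there were 3 lower, where 5.98% of all genes were, and 0 higher, and edgeR called 0. Nfe2l1 itself had 98.4, 109 and 134 CPM in WT and 99.2, 52.1 and 96.2 in KO (log2 -0.47, SE 0.25), with an overlap through KO replicate 1. Ngly1, the enzyme that strips sugars from NRF1, was at 44.4 ± 8.35 and 35.0 ± 3.11 CPM (log2 -0.34, SE 0.15), and the small Maf partners Mafg and Mafk at log2 -0.32 (SE 0.14) and -0.28 (SE 0.12).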

How the data were processed

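RNA of Ter119+ spleen cells went into TruSeq version 2 libraries, per the labels' protocols. The authors deposited whole-number read counts per gene symbol. STAR 2.5, HTSeq, DESeq2 and mm10 are named, without roles, per the submitters' processing notes; the sources used here do not give the annotation, counting rules or strand setting. Lines whose gene name was a date (27, under 0.4% of reads) were dropped and 122 lines sharing 52 symbols were summed.

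Genes were tested with edgeR 4.0.16 (R 4.3.3; filterByExpr, TMM, robust quasi-likelihood F test, no covariate) and p-values adjusted by Benjamini-Hochberg over all 13721 genes tested; an adjusted p under 0.05 was a call. DESeq2 1.42.0 and limma-voom (limma 3.58.1) were alternatives. On simulated data with known changes the share of false calls lay above the nominal level for each of these tools and was highest for DESeq2. CPM are counts over TMM-scaled totals. Lengths, positions and overlaps came from GENCODE M21 (GRCm38) and promoters from RefSeq. Of the 43 members 21 overlap another annotated gene, and without strand such reads cannot be told apart. The closest pair of libraries differed by a chi-square of 22.1 per gene, beyond sampling noise.

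The members and lists were chosen with earlier results of these data known. Named were Nfe2l2; up to 3 tested members of each subcomplex and up to 3 tested genes of each other list with the smallest p; Psmb5 to Psmb10, Psme1 and Psme2; and the 3 highest members per kb. Other genes were named after their values were seen, and some results under this rule are not reported here. Alternatives were other scalings, tools and filters, each library left out, a block for the replicate number, a comparison of WT with KO replicate 3 only (KO replicates 1 and 2 stayed in that fit as their own group, so that the lone library was assumed to vary like the others) and, added after the data were seen, exon unions as gene lengths.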

Additional observations from a re-analysis of the deposited data

How the results depend on the processing

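The median log2 change of the members (0.10) was 0.23 by library totals and 0.0051 to 0.16 without single libraries, lowest without KO replicate 1. The number lower (8) was 2 by library totals and 7 to 18 without single libraries. Members higher at an unadjusted p under 0.05 (5) were 18 by library totals, 1 for KO replicate 3 alone and 0 to 10 without single libraries; the 10 arose without KO replicate 2 or WT replicate 3. Those lower (2) were 1 by library totals, by limma-voom, with the replicate block and for KO replicate 3 alone, and 1 to 2 without single libraries. Members called (0) became 1 by DESeq2. Genes called over all (3) were 339 by DESeq2, 228 with no filter, 33 by library totals, 10 with DESeq2 size factors, 9 with a filter of 1 CPM in 3 libraries, 9 with the replicate block, 8 by upper-quartile scaling, 6 for KO replicate 3 alone and 0 to 14 without single libraries. Same-numbered WT and KO libraries correlated by 0.098, 0.044 and 0.031 in their deviations from the group means, so the numbers were not taken to pair them; with the block 7 members were higher and 1 lower at an unadjusted p under 0.05, and 0 were called.

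Of 672 alternative values of the 42 named log2 changes 655 kept their direction and 2, both by DESeq2, passed an adjusted p of 0.05. The others were Psmb9 (-0.036 for KO replicate 3 alone, -0.032 by limma-voom, -0.29 to 0.28 without single libraries), Psmd2 (-0.036 for KO replicate 3 alone), Psme1 (0.0046 for KO replicate 3 alone, 0.046 by library totals, -0.19 to 0.024 without single libraries), Psmd5 (0.0035), Psmd9 (0.026) and Psme4 (0.050) by library totals, and, without single libraries, Psmb7 (-0.0040 to 0.23), Psmb8 (-0.095 to 0.33), Psmc3 (-0.0033 to 0.13), Psmd1 (-0.031 to 0.15) and Psme2 (-0.11 to 0.16). The cause was not tested. Depth limits Psma8, with 30 reads in its shallowest library, and Psmb11, which was not tested.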

Other observations

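Ubiquitin genes and the shuttles that carry tagged proteins to the proteasome were measured in the same libraries. Of 15 tested 9 were above 0, against 52.9% of all genes, and 6 below. Their median log2 change was 0.11 (-0.028 to 0.16 with 1 library left out). By edgeR 0 were called, with 0 higher and 1 lower at an unadjusted p under 0.05. For all genes the shares at that p were 6.25% higher and 5.98% lower. Rad23b, a shuttle, had 106, 86.7 and 97.5 CPM in WT and 108, 102 and 127 in KO (log2 0.22, SE 0.12). Ubqln4, another shuttle, had 60.03, 44.9 and 57.8 in WT and 67.3, 68.1 and 60.9 in KO (log2 0.27, SE 0.13). The autophagy receptor Sqstm1, an Nrf2 target in mice, had 543, 431 and 476 in WT and 454, 373 and 381 in KO, with an overlap (log2 -0.26, SE 0.12, adjusted p = 0.418 by edgeR). Ubb, a polyubiquitin gene, stood at 2425, 2170.3 and 2958 CPM in WT and 2574, 1622 and 2670.4 in KO.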
